A study of Homo sapiens with 8 samples.

Results

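The clustered histone genes are the canonical histone genes that lie in tandem on chromosomes 6 and 1 and code for the linker histone H1 and the core histones H2A, H2B, H3 and H4. They were taken by name from the deposited count table (H1-1 to H1-6 and the H2AC, H2BC, H3C and H4C genes), and a gene was kept when it had 10 or more counts in at least 2 of the 8 libraries. Of 60676 genes in the table, 66 matched by name and 33 passed, with 3 of 6 H1, 8 of 16 H2A, 12 of 17 H2B, 3 of 13 H3 and 7 of 14 H4 genes. The other 33 stayed below the minimum, and 13 of those had no count in any library. The members nearest the minimum were H2AC14 and H4C2, each with 2 libraries at 10 or more counts, and H2BC6, H3C12 and H3C13 missed it with 1 library each.

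The study treated mice carrying the human acute myeloid leukaemia line MOLM14, in a model the labels call CLDX, and asked how a ketogenic diet and the FLT3 inhibitor gilteritinib act together. MOLM14 carries FLT3-ITD, an activating duplication in the receptor kinase FLT3, and a rearranged MLL gene (MLLr), and all 8 libraries share this genotype. Marrow cells were purified by human CD45 (4 libraries), and a further 4 libraries carry the label of a whole liver extract in which mouse and human cells are mixed. In each tissue the drug groups were gilteritinib (GIT+) or vehicle (GIT-) for 1 week, and the diet groups were ketogenic (KD+) or standard (KD-) for 3 weeks. Each of the combinations GIT+ KD+, GIT+ KD-, GIT- KD+ and GIT- KD- has 1 library per tissue label, and the labels do not say how many animals a library holds. The sample titles carry the code JE558 for all marrow libraries and JE590 for all libraries labelled liver. It is taken as a batch code here, so tissue and batch cannot be told apart.

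Bulk mRNA was sequenced, and library totals ran between 13605936 and 33611830 counts. In the libraries labelled liver both GIT+ libraries were deeper, with 27657147 (KD+) and 26499478 (KD-) counts, against 16542212 (KD+) and 13605936 (KD-) in GIT-. The counted human genes cannot test the label liver, because hepatocytes of the host are mouse cells. Whether mouse reads were counted or removed is not stated. Of 14 hepatocyte markers, 8 had no count in any library labelled liver, among them ALB, APOA2, APOB and TTR, and the 14 together summed to between 1.40 and 2.12 CPM (counts per 1000000 counts of a library) there, against 0.921 to 1.64 CPM in marrow. Of 7 leukaemia cell markers, PTPRC, CD33, FLT3, MPO and LYZ had counts in every library, while the monocyte markers CD68 and CD14 had at most 6 and 4 counts in any library, with CD14 at 0 in 4 of 8. In bulk RNA, fewer cells that express a gene and less RNA per cell cannot be told apart.

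Most histone protein for new chromatin is made in S phase from these genes. Their messenger RNAs are unusual: they end in a conserved stem-loop that is bound by the stem-loop binding protein SLBP, and they carry no poly(A) tail. A subset of the genes also gives polyadenylated transcripts, described above all in cells that leave the cycle or differentiate. An mRNA library favours RNA with a poly(A) tail, which under-counts the stem-loop form, so the counted RNA need not mirror the total. A list of 6 clustered genes with known polyadenylated transcripts (H1-2, H2AC6, H2BC4, H2BC5, H2BC12 and H2BC21) is called the polyadenylated list here. It rests on general knowledge of these genes, and it was written when the rise of H2BC12 in these libraries was already known.

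The stem-loop is shown for 4 members of the polyadenylated list, because the form without a poly(A) tail ends there, while longer transcripts can run past it. The capitals mark the 16-base stem-loop core, with 5 bases on each side, in the sense of the transcript (GENCODE 29, GRCh38).
H2AC6: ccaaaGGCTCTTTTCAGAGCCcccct
H2BC5: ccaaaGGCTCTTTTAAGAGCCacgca
H2BC21: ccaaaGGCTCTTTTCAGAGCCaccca
H2BC4: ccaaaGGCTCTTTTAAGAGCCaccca
These lie at chr6:26124664-26124689 on the plus strand, chr6:26158582-26158607 on the plus strand, chr1:149886183-149886208 on the minus strand and chr6:26123467-26123492 on the minus strand. H2AC6 and H2BC21 share a core that 9 members carry, and H2BC5 and H2BC4 share one that 3 members carry. Of 19 members whose annotated transcript runs 60 or more bases past the stop codon, 18 hold a stem-loop core. For 11 members, H2BC12 and H1-2 among them, the annotated model stops at the stop codon, so no stem-loop could be read from it. H2AC6 is annotated with transcripts that run on for up to 1187 bases past the stop codon and H2BC21 for up to 1801, both beyond the stem-loop. Such long transcripts are not particular to the list: a transcript reaching 100 or more bases past the stem-loop is annotated for 3 of its 6 genes and for 10 of the 26 other annotated members, and H2AC11 (1827 bases past the stop codon) and H2BC15 (3575 bases) run further. RefSeq lists 2 mRNAs for each of H2BC12, H2BC18, H2BC4 and H2BC5 and 1 for each of the other members.

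All members were low in these libraries, and H2BC12 stood above the rest. The median over the 8 libraries was under 1 CPM for 20 members, between 1 and 5 CPM for 10 and at least 5 CPM for 3, in a range of 0.166 to 12.3 CPM. Per kilobase of exon, the 5 highest members were H2BC12 (an H2B, 32.2 CPM per kb), H1-2 (a linker histone, 7.82), H2AC20 (an H2A, 5.43), H2AC6 (an H2A, 5.08) and H2BC5 (an H2B, 3.52), again as medians over 8 libraries. The models of H2BC12, H1-2 and H2AC20 hold only the coding sequence, which makes their per-length levels high relative to members with a full-length model. The lengths are from GENCODE 29, which holds 96.4% of the gene identifiers counted and lacks the member H3C2. The counts were therefore made on another annotation, in which lengths may differ, so this ranking is approximate. Sequence shared with another histone gene was rare: 7 of 32 members with a transcript sequence share any 100-base stretch, above all H4C14 (94.9% of its stretches, with H4C15), H2AC14 (80.9%) and H2AC13 (57.7%, with each other), so counts of these 3 are uncertain. H2BC12, H1-2, H2AC6, H2BC5 and H2BC4 share none, and H2BC21 shares 2.63% with H2BC18.

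Gilteritinib in marrow went with a rise of 4 clustered histone genes. All 4 are on the polyadenylated list, which was written with the rise of H2BC12 already known. No member was called lower with TMM scaling, although 13 of 25 had a negative fold change, and H2AC20 and H3C11 were called lower when library totals were used. H2BC12 had 28.7 and 33.4 CPM in GIT+ KD+ and GIT+ KD- marrow, against 11.8 and 12.7 CPM in GIT- KD+ and GIT- KD- marrow. H1-2 had 9.62 and 12.3 CPM in the GIT+ marrow libraries in the same order, against 4.24 and 4.97 CPM in the GIT- ones. H2AC6 had 18.5 and 11.8 CPM in GIT+ marrow, against 5.83 and 7.47 CPM in GIT- marrow. In all 3 genes both GIT+ libraries lay above both GIT- libraries, and for H2AC6 the GIT+ KD+ library was the highest. H2BC5 had 6.25 and 5.08 CPM in GIT+ marrow, against 2.58 and 2.62 CPM in GIT- marrow, again without overlap.

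The test was edgeR's quasi-likelihood test with drug and diet as terms and Benjamini-Hochberg adjustment over all 14029 genes tested in marrow, and a gene was called at an adjusted p under 0.05. H2BC12 rose by 1.49 on the log2 scale (SE 0.14, adjusted p = 1.17e-11), H1-2 by 1.40 (SE 0.21, adjusted p = 5.94e-07), H2AC6 by 1.28 (SE 0.20, adjusted p = 3.71e-06) and H2BC5 by 1.25 (SE 0.26, adjusted p = 0.000312). Called members were 4 of 25, against 20.2% of all genes tested. Upward they were 4 of 25, against 10.3% of all genes, and downward 0 of 25, against 9.88%. The share of members called in either direction lies near that of all genes. Leaving out the GIT+ KD+ library took the calls of H2AC6 (log2 0.79, adjusted p = 0.0610) and H2BC5 (1.08, adjusted p = 0.0561), while H2BC12 and H1-2 kept theirs with any 1 marrow library left out. With 1 library per combination, the fit assumes that drug and diet effects add up on the log2 scale. The p-values rest on departures from that and on spread shared across genes, and not on replicates. For H2AC6 the drug effect covers 18.5 (GIT+) against 5.83 CPM (GIT-) in KD+ marrow and 11.8 against 7.47 CPM in KD- marrow. The difference in drug effect between the diets was not tested.

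**Figure D1:**
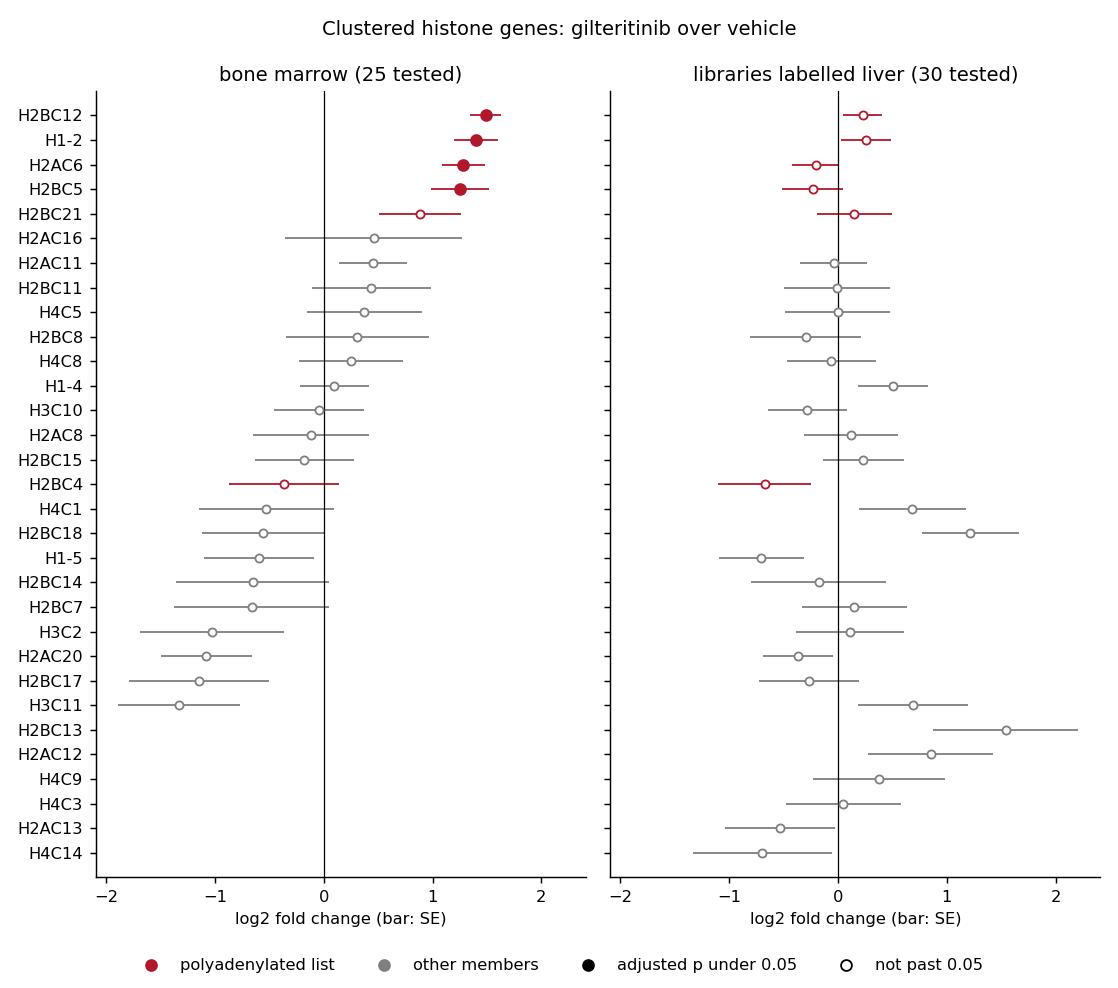
Log2 fold change of gilteritinib over vehicle (x axis, points, with bars of 1 SE) for each clustered histone gene tested, in marrow on the left and in libraries labelled liver on the right. In marrow H2BC12, H1-2, H2AC6 and H2BC5 (filled red points) lie between 1.25 and 1.49, and in the libraries labelled liver no member is called.

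The promoters of the 4 members that rose are shown because these genes moved together in marrow. Each is the RefSeq window (GRCh38.p14) of 250 bases before to 50 after the annotated start, in the sense of the gene. The capitals mark 3 motifs, searched on both strands, and overlapping matches run together. They are TATAAA, the core promoter element where the transcription machinery assembles, then CCAAT, which the factor NF-Y binds, and ATTTGCAT, the octamer known for its role at H2B genes.
H2BC12: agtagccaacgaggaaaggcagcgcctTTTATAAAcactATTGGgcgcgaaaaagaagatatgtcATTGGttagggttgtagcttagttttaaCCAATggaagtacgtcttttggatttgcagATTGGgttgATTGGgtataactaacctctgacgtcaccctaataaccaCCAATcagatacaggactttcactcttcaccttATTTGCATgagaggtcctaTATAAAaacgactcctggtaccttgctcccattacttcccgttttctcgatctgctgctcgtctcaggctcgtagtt
H2AC6: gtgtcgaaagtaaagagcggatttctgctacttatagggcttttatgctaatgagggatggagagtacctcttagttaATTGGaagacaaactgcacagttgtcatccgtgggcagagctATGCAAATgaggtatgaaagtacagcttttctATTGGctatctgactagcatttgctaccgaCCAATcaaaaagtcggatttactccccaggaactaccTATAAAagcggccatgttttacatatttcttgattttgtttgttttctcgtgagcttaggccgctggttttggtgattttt
H2BC5: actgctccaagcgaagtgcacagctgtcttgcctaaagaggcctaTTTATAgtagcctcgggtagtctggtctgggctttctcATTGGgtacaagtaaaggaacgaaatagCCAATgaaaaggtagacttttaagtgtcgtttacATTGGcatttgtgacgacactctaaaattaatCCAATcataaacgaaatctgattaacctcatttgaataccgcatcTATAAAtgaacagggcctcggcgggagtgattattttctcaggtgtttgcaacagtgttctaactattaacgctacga
H1-2: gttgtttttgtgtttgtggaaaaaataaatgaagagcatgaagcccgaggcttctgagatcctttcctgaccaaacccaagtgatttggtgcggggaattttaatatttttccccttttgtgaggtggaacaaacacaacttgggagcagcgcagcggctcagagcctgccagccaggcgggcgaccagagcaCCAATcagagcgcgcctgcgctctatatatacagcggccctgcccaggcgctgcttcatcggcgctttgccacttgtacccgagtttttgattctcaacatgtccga
The windows are chr6:27146809-27147108 on the minus strand for H2BC12 (the first of its 2 listed starts), chr6:26123922-26124221 on the plus strand for H2AC6, chr6:26157871-26158170 on the plus strand for H2BC5 (also the first of 2) and chr6:26056421-26056720 on the minus strand for H1-2. A promoter was listed for 29 of the 33 members. TATAAA was found in 19 of these 29 (65.5%), against 11.5% of 35116 RefSeq promoters of this length, CCAAT in 25 (86.2%), against 34.6%, and ATTTGCAT in 15 (51.7%), against 1.77%. The 4 promoters shown do not share one arrangement: H2BC12 and H2AC6 hold all 3 motifs, H2BC5 holds TATAAA and CCAAT, and H1-2 holds CCAAT alone. A match is a description of letters and not a test of binding.

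The other members of the polyadenylated list did not pass the test in marrow. H2BC21, an H2B gene on chromosome 1, had 2.02 and 2.31 CPM in GIT+ KD+ and GIT+ KD- marrow, against 1.23 and 1.37 CPM in GIT- KD+ and GIT- KD- marrow, with a log2 fold change of 0.88 (SE 0.38, adjusted p = 0.0897). H2BC4, another H2B gene, had 0.529 and 1.16 CPM in GIT+ marrow, against 1.17 and 1.19 CPM in GIT- marrow, with a log2 fold change of -0.37 (SE 0.50). H2BC21 was thus higher in both GIT+ libraries without a call, and H2BC4 was low in the GIT+ KD+ library only.

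The 19 tested members outside the polyadenylated list gave no call in marrow, and their median log2 fold change was -0.18, against -0.0071 over all genes. Of these, 12 had a negative and 7 a positive fold change. The most negative were the H3 gene H3C11 (-1.33, SE 0.56, adjusted p = 0.0841), the H2B gene H2BC17 (-1.15), the H2A gene H2AC20 (-1.08, SE 0.42, adjusted p = 0.0602) and the H3 gene H3C2 (-1.03). H3C11 had 11 and 6 counts in GIT+ KD+ and GIT+ KD- marrow, against 24 and 37 counts in GIT- KD+ and GIT- KD- marrow. Standard errors in this group ran between 0.31 and 0.81, with a median of 0.54, against 0.14 for H2BC12, so changes had to be large to pass the test. With library totals in place of TMM factors (a scaling that assumes most genes unchanged), H2AC20 (adjusted p = 0.0253) and H3C11 (adjusted p = 0.0435) were called lower beside the same 4 called higher, and the median of all genes moved to -0.16.

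Read without a test, 8 of 25 members had both GIT+ marrow libraries above both GIT- ones (TMM-scaled CPM), as did 28.6% of all genes, and 5 had both below, as did 29.4%. The 8 were H2BC12, H1-2, H2AC6, H2BC5, H2BC21, H2AC11, H2BC11 and H4C5. The 5 were H1-5, H2AC20, H2BC17, H3C11 and H3C2. The counts of members lie near the share of all genes in both directions.

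**Figure D2:**
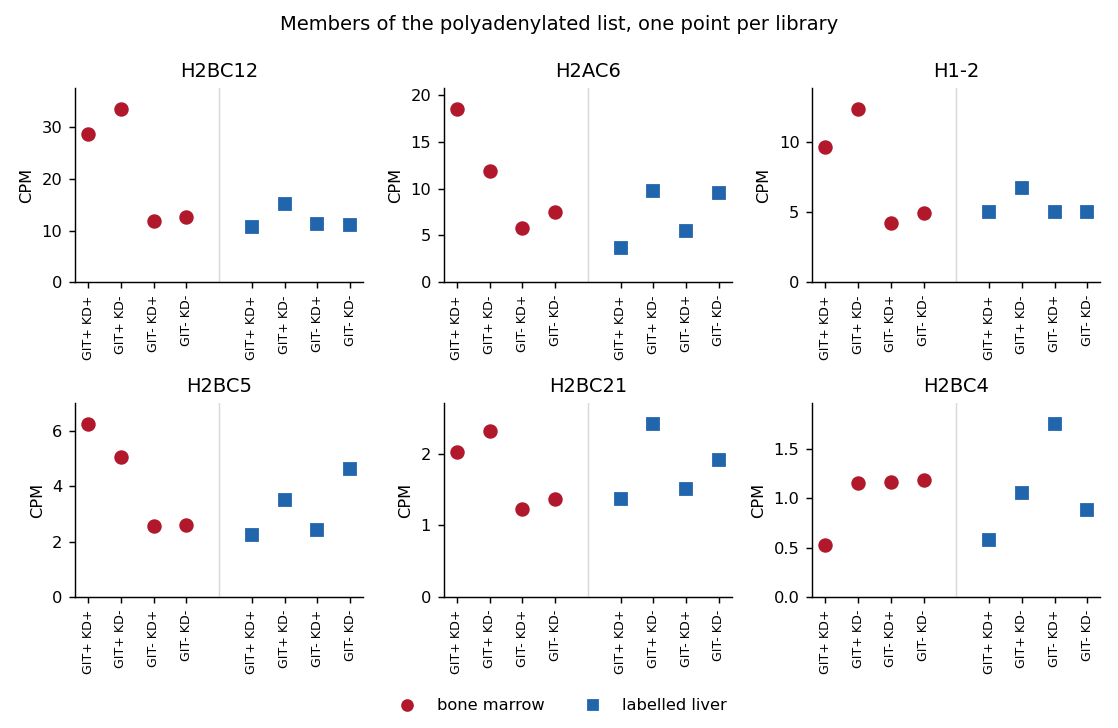
CPM (y axis, from 0) of the 6 members of the polyadenylated list in each library, 1 point per library, with marrow as red circles and libraries labelled liver as blue squares. In marrow both GIT+ libraries lie above both GIT- libraries for H2BC12, H2AC6, H1-2, H2BC5 and H2BC21 but not for H2BC4.

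Summed over all 33 members, histone counts were higher with the drug in marrow. The polyadenylated list held the difference, but it includes the 4 genes called higher there and was written with the rise of H2BC12 known. That split was therefore largely set by the choice of the list. In GIT+ KD+ and GIT+ KD- marrow those 4 genes alone summed to 63.0 and 62.7 CPM. In GIT- KD+ and GIT- KD- marrow they summed to 24.5 and 27.7 CPM. All members summed to 87.1 and 84.3 CPM in GIT+ KD+ and GIT+ KD- marrow, against 53.2 and 55.0 CPM in GIT- KD+ and GIT- KD- marrow. The 6 genes of the list summed to 65.6 CPM (exact Poisson 95% interval 62.1 to 69.2) and 66.1 CPM (62.2 to 70.3) in GIT+ marrow, against 26.9 CPM (24.4 to 29.5) and 30.3 CPM (28.5 to 32.2) in GIT- marrow. They held 75.3% and 78.4% of the member counts in GIT+ marrow, against 50.5% and 55.1% in GIT- marrow.

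The 27 other members summed to 21.5 and 18.2 CPM in GIT+ KD+ and GIT+ KD- marrow, against 26.3 and 24.7 CPM in GIT- KD+ and GIT- KD- marrow. Both GIT+ sums lie below both GIT- sums on this scale, but with TMM factors they are 23.3 and 18.5 CPM in GIT+ marrow, against 25.2 and 23.1 CPM in GIT- marrow, and the groups then overlap. These intervals and sums carry counting error only, and the sums were given no test.

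**Figure D3:**
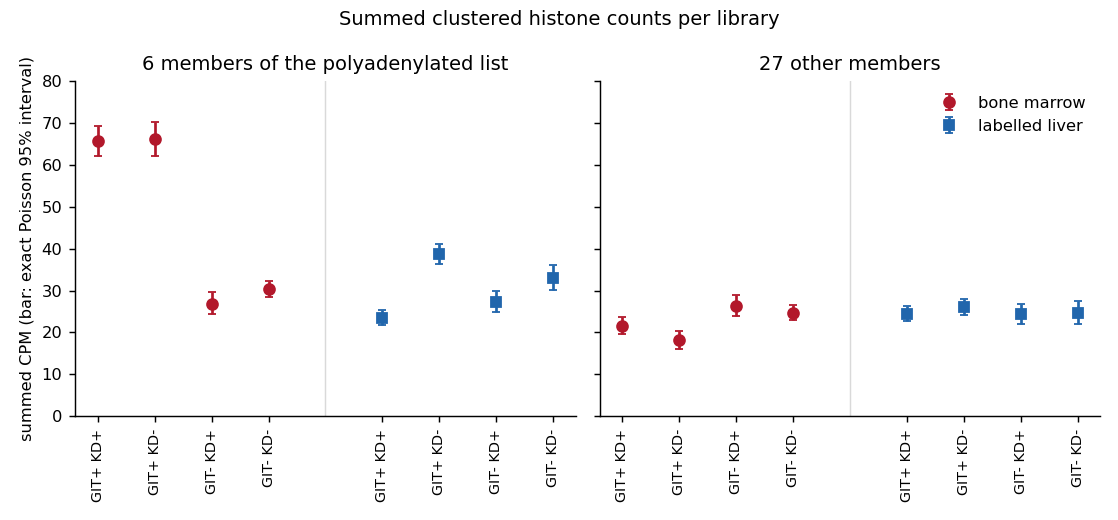
Summed CPM (y axis, from 0, with bars of the exact Poisson 95% interval) of the 6 members of the polyadenylated list on the left and of the 27 other members on the right, 1 point per library. The list sums to 65.6 and 66.1 CPM in GIT+ marrow, against 26.9 and 30.3 CPM in GIT- marrow, while the other members stay between 18.2 and 26.3 CPM in all 8 libraries.

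By histone class outside the list, H1 genes summed to 3.66 and 3.02 CPM in GIT+ KD+ and GIT+ KD- marrow, against 3.81 and 4.02 CPM in GIT- KD+ and GIT- KD- marrow. H2A genes summed to 6.83 and 4.69 CPM in GIT+ marrow, against 6.998 and 7.47 CPM in GIT- marrow. H3 genes summed to 2.12 and 2.25 CPM in GIT+ KD+ and GIT+ KD- marrow, against 3.87 and 3.45 CPM in GIT- KD+ and GIT- KD- marrow. H4 genes, none of which is on the list, summed to 3.61 and 4.05 CPM in GIT+ marrow, against 4.42 and 3.99 CPM in GIT- marrow. H2B genes outside the list summed to 5.29 and 4.18 CPM in GIT+ marrow, against 7.24 and 5.80 CPM in GIT- marrow. On this scale the drug groups overlapped for H4 and not for H1, H2A, H2B and H3, and with TMM factors they overlapped for all of these classes but H3.

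Many H2A and H2B genes lie head to head and share a short promoter region. Of the 32 annotated members, 16 have a protein-coding gene starting on the other strand within 1000 bases, called the partner here. For H2BC7 the partner is AL031777.2. Of the 4 genes that rose in marrow, H1-2 and H2BC5 have no partner in this sense. The partner of H2AC6 was not called, and that of H2BC12 could not be tested. H2BC12 lies 331 bases from H2AC12, which had 4 and 0 counts in GIT+ KD+ and GIT+ KD- marrow, against 7 and 16 counts in GIT- KD+ and GIT- KD- marrow, too few to be tested. H2AC6 lies 219 bases from H2BC4, and in marrow H2AC6 rose by 1.28 on the log2 scale while H2BC4 had a log2 fold change of -0.37 and was not called. H2BC21 lies 323 bases from H2AC20, with log2 fold changes in marrow of 0.88 for H2BC21 and -1.08 for H2AC20, neither of them called. The difference within a pair was not tested.

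No member was called for the drug in the libraries labelled liver. H2BC12 had 10.7 and 15.1 CPM in GIT+ KD+ and GIT+ KD- libraries, against 11.2 and 11.1 CPM in GIT- KD+ and GIT- KD- libraries, a log2 fold change of 0.23 (SE 0.18). H1-2 had 5.03 and 6.75 CPM in GIT+, against 5.02 and 4.998 CPM in GIT-, a log2 fold change of 0.25 (SE 0.23). H2AC6 had 3.62 and 9.74 CPM in GIT+, against 5.44 and 9.48 CPM in GIT-, a log2 fold change of -0.21 (SE 0.21). For H2AC6 the groups overlap and the libraries split by diet. H2BC5 had 2.24 and 3.51 CPM in GIT+, against 2.42 and 4.63 CPM in GIT-, a log2 fold change of -0.23 (SE 0.28).

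By edgeR's quasi-likelihood test, 0 of 30 members passed an adjusted p of 0.05, against 2.26% of 14092 genes, and 2 of 30 an unadjusted p of 0.05, against 10.5% of genes. Those 2 were the H2B genes H2BC18 (log2 1.22, SE 0.45, adjusted p = 0.167) and H2BC13 (1.54, SE 0.67, adjusted p = 0.314). H2BC18 had 43 and 35 counts in GIT+, against 9 and 10 counts in GIT-, in libraries of which the GIT+ ones were the deeper. H2BC18 is annotated as overlapping FCGR1A on the opposite strand, and since no source used here states whether counting used strand, its count is uncertain. The other alternatives run here gave no call either, DESeq2 and limma-voom included, but DESeq2 gave only 12 of the 30 members an adjusted p. Both GIT+ libraries lay above both GIT- ones for 7 members, as for 18.2% of genes, and below for 2, as for 18.1%.

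Fitted over all 8 libraries with separate terms per tissue label, the drug effect differed between marrow and the libraries labelled liver for the same 4 genes that rose in marrow. The difference, marrow minus labelled liver on the log2 scale, was 1.26 for H2BC12 (SE 0.22, edgeR adjusted p = 0.00183), 1.49 for H2AC6 (SE 0.32, adjusted p = 0.0117), 1.49 for H2BC5 (SE 0.37, adjusted p = 0.0288) and 1.15 for H1-2 (SE 0.30, adjusted p = 0.0352). These are 4 of 33 members, against 2.62% of 14749 genes in either direction and 0.922% in the upward one. With library totals in place of TMM factors the median of all genes in this difference was -0.12, and H1-2 lost its call (adjusted p = 0.0652). The 4 were already known from the marrow comparison, and tissue and batch cannot be told apart in this difference. H2BC12 kept its call in all 8 fits with 1 library left out. H2AC6 kept it in 4 of 8 and lost it without any 1 of the KD+ libraries (adjusted p 0.0514 to 0.114). H2BC5 kept it in 4 of 8 and lost it without the marrow GIT+ KD+, marrow GIT- KD+, labelled-liver GIT+ KD- or labelled-liver GIT- KD- library (adjusted p 0.102 to 0.410). H1-2 kept it in 1 of 8, without the marrow GIT- KD+ library, and otherwise had an adjusted p of 0.0565 to 0.171.

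With 1 drug term for all 8 libraries, H1-2 was the single member called, at a log2 fold change of 0.85 (SE 0.21, edgeR adjusted p = 0.0363), which is 1 of 33 members, against 4.65% of 14749 genes in either direction and 2.8% upward. H1-2 had the same direction in both labels, but the call was lost without any 1 of the marrow libraries (adjusted p 0.117 to 0.185). H2BC12 had a log2 fold change of 0.90 (SE 0.24, adjusted p = 0.0676) in this fit.

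For the ketogenic diet 1 member was called, H2AC6 in the libraries labelled liver. There H2AC6 had 3.62 and 5.44 CPM in KD+ libraries with and without gilteritinib, against 9.74 and 9.48 CPM in KD- libraries with and without gilteritinib. Both KD+ libraries lay below both KD- ones, and by edgeR's test H2AC6 fell by 1.10 (log2, SE 0.21, adjusted p = 0.000216). Called members were 1 of 30, against 0.951% of 14092 genes in either direction and 0.624% downward. In this label the ratio of single libraries, KD+ over KD-, was 0.371 with gilteritinib (95% counting interval 0.292 to 0.470) and 0.574 without it (0.433 to 0.757). The call was lost without the GIT+ KD+ library (log2 -0.80) or the GIT+ KD- library (log2 -0.81), both at an adjusted p near 1, when all 8 libraries were fitted together (-1.10, adjusted p = 0.0514), and with the drug term dropped (-1.08, adjusted p = 0.287).

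In the same libraries the neutrophil granule genes ELANE (log2 0.54, adjusted p = 0.00539), AZU1 (0.48, adjusted p = 0.0227) and PRTN3 (0.46, adjusted p = 0.0327) rose with the diet. The 8 genes of that marker list summed to 3558 and 3231 CPM in KD+, against 2307 and 2655 CPM in KD-, and LTF and CEACAM8, markers of later neutrophil stages, were at 0 in all 8 libraries. In marrow the same list summed to 3793 and 1987 CPM in GIT+ KD+ and GIT+ KD- libraries, against 2497 and 2299 CPM in GIT- KD+ and GIT- KD- libraries, with its highest sum in the library where H2AC6 was also highest. Among the libraries labelled liver the pairing was the opposite: the highest sum, 3558 CPM in GIT+ KD+, was where H2AC6 was lowest, at 3.62 CPM. The part of these granule genes in the changes of H2AC6 was not tested.

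Other members of the polyadenylated list were lower with the diet in the libraries labelled liver without passing the test. H2BC5 had 2.24 and 2.42 CPM in KD+ libraries with and without gilteritinib, against 3.51 and 4.63 CPM in KD- libraries, a log2 fold change of -0.75 (SE 0.28, adjusted p = 0.254). H2BC21 had 1.37 and 1.51 CPM in KD+, against 2.42 and 1.91 CPM in KD-, a log2 fold change of -0.58 (SE 0.34, adjusted p = 0.606). In both genes the 2 groups did not overlap. Both KD+ libraries lay below both KD- ones for 8 of 30 members, as for 18.1% of genes, and above for 4, as for 17.9%. H4C14, which shares most of its sequence with H4C15, had a log2 fold change of -1.76 (SE 0.66, adjusted p = 0.255) on 5 and 2 counts in KD+, against 10 and 12 counts in KD-.

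In marrow the diet gave no call among 25 members, against 0.492% of 14029 genes, and no member passed even an unadjusted p of 0.05 in edgeR's test, against 9.25% of genes. The alternatives run for this comparison, limma-voom among them, gave no call either, and DESeq2 gave no member an adjusted p. H2AC6 there had 18.5 and 5.83 CPM in KD+ libraries with and without gilteritinib, against 11.8 and 7.47 CPM in KD- libraries, so the drug groups moved in opposite directions. Its ratio of single marrow libraries, KD+ over KD-, was 1.56 with gilteritinib (95% counting interval 1.31 to 1.87) and 0.781 without it (0.610 to 0.993). H2AC6 had a log2 fold change of 0.24 for the diet in marrow. Both KD+ marrow libraries lay above both KD- ones for 4 of 25 members (H2BC14, H2BC18, H2BC7 and H4C1), as for 12.5% of genes, and below for 1 (H3C10), as for 12% of genes. The difference in diet effect between the labels, 1.35 for H2AC6 (SE 0.32, adjusted p = 0.613), was not called, nor was that of any other member of 33, against 0.00678% of 14749 genes, although 4 passed an unadjusted p of 0.05, against 4.56% of genes. Over all 8 libraries the diet term called 0 of 33 members, against 0.136% of genes, and 2 passed an unadjusted p of 0.05, against 8.69%.

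**Figure D4:**
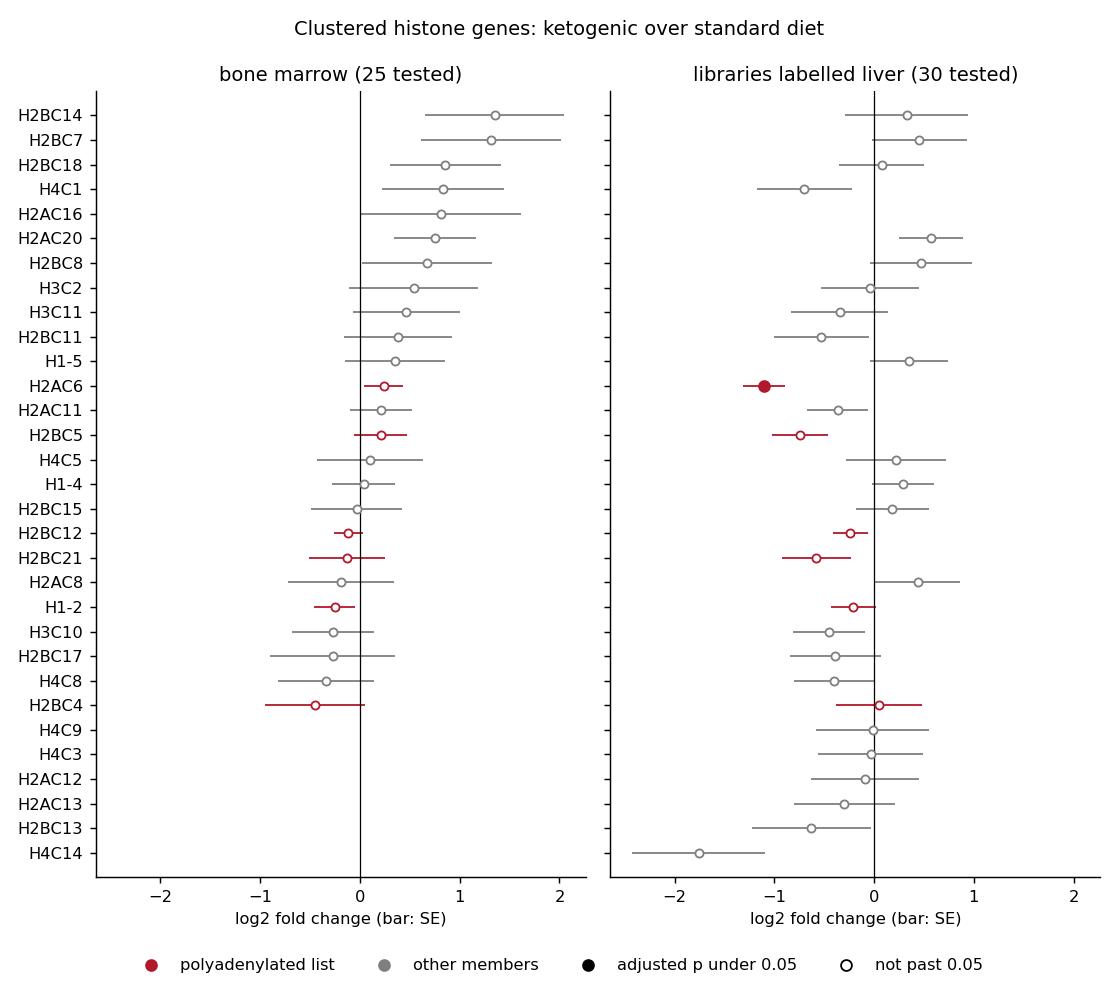
Log2 fold change of the ketogenic over the standard diet (x axis, points, with bars of 1 SE) for each clustered histone gene tested, in marrow on the left and in libraries labelled liver on the right. H2AC6 in the libraries labelled liver, at -1.10, is the single filled point.

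Marrow and libraries labelled liver did not differ in the level of any member past the test. Averaged over drug and diet, 0 of 33 members and 0.0% of 14749 genes were called by edgeR, and 2 members passed an unadjusted p of 0.05, against 13.6% of genes. These were H2BC12 (log2 0.74 for marrow over labelled liver, SE 0.24, adjusted p = 0.251) and H2AC20 (-0.62, SE 0.26, adjusted p = 0.323). H2BC12 was the one member that DESeq2 called higher in marrow (log2 0.71, adjusted p = 0.0384). All members summed to between 53.2 and 87.1 CPM in marrow and to between 48.0 and 64.6 CPM in the libraries labelled liver.

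Genes of DNA replication fell in marrow, where H2BC12, H1-2, H2AC6 and H2BC5 rose. Of 34 S phase genes (replication enzymes, licensing factors and nucleotide synthesis), 31 fell with gilteritinib in marrow (9.88% of all genes did), 0 rose and 3 were not called, with a median log2 fold change of -0.71, against -0.0071 over all genes. RRM2, the small subunit of ribonucleotide reductase, fell by 1.22 on the log2 scale (SE 0.11, adjusted p = 1.82e-12), the primase subunit PRIM1 by 1.02 (SE 0.15, adjusted p = 1.09e-06) and the replication factor MCM10 by 0.98 (SE 0.13, adjusted p = 1.39e-07). PCNA, the sliding clamp of the replication fork, fell by 0.45 (SE 0.10, adjusted p = 0.00112). The list summed to 2102 and 1845 CPM in GIT+ KD+ and GIT+ KD- marrow, against 3456 and 3464 CPM in GIT- KD+ and GIT- KD- marrow. Without the GIT+ KD- library, and likewise without the GIT- KD- library, 17 of 34 fell.

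Of the 34 S phase genes, 0 were called with the drug in the libraries labelled liver by edgeR, DESeq2 or limma-voom, and their median log2 fold change was 0.11. Of all genes, edgeR called 2.26% there. The test of the difference called 250 of all 14749 genes lower in marrow than in labelled liver. By this test the drug effect was lower in marrow for 25 of the 34. That count was 8 without the labelled-liver GIT- KD- library and 10 without any 1 of the labelled-liver GIT+ KD-, marrow GIT+ KD- and marrow GIT- KD- libraries. Neither S phase genes nor any other list here was tested against the histone genes.

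Of 17 genes for histone mRNA end processing and cluster transcription, 4 fell with gilteritinib in marrow and 0 rose, with a median log2 fold change of -0.30. Over all genes tested there, 9.88% were called lower and 10.3% higher. These were CASP8AP2, a cluster coactivator (-0.44, SE 0.15, adjusted p = 0.0236), SLBP, the stem-loop binding protein (-0.39, SE 0.11, adjusted p = 0.00837), CSTF2, a cleavage factor (-0.37, adjusted p = 0.0497), and CPSF2, a subunit of the cleavage complex (-0.31, adjusted p = 0.0337). NPAT, the coactivator of histone clusters in S phase, had a log2 fold change of -0.47 (SE 0.18, adjusted p = 0.0596) and was not called. DESeq2 called 0 of the 17, as did each fit with 1 marrow library left out. In the libraries labelled liver 0 of 17 were called by edgeR, DESeq2 or limma-voom, and SLBP had a log2 fold change of 0.18 there. Of all genes, edgeR called 2.26% in these libraries.

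**Figure D5:**
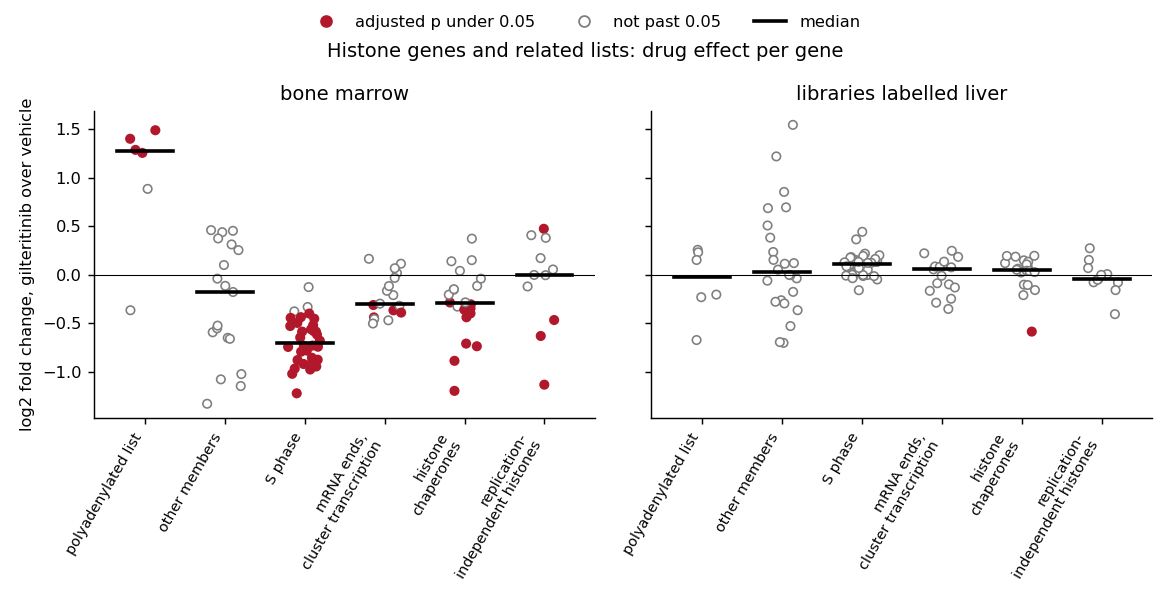
Log2 fold change of gilteritinib over vehicle (y axis) for each gene of 6 lists, in marrow on the left and in libraries labelled liver on the right, with red points past an adjusted p of 0.05 and a bar at each list's median. In marrow the polyadenylated list has called genes only above 0 and the S phase list only below 0, and in the libraries labelled liver the chaperone gene HJURP is the one called.

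Several marker genes moved with the drug beside the histone genes in marrow. The 8 erythroid markers had at most 5 counts together in any marrow library, and 5 of them were at 0 throughout. Of 11 stromal and endothelial markers 7 were at 0 in marrow, and the list summed to 2.89 and 3.73 CPM in GIT+ KD+ and GIT+ KD- marrow, against 9.02 and 9.25 CPM in GIT- KD+ and GIT- KD- marrow, nearly all of it PDGFRB, which fell by 1.45 (log2, SE 0.24, adjusted p = 6.70e-06). The 8 Kupffer cell and macrophage markers summed to between 0.257 and 1.59 CPM in marrow, with 5 at 0. The 10 lymphoid markers summed to 97.1 and 92.6 CPM in GIT+ marrow, against 78.3 and 68.6 CPM in GIT- marrow, nearly all of it NKG7, which rose by 0.52 (log2, SE 0.11, adjusted p = 0.000376). CD3D, a T cell marker, rose by 1.74 in edgeR's test (SE 0.49, adjusted p = 0.00784). It had 23 and 37 counts in GIT+ marrow, against 6 and 26 counts in GIT- marrow. CD3E had 0 counts in both GIT+ marrow libraries, against 4 and 1 counts in GIT- KD+ and GIT- KD- marrow, too few to be tested. CD3G was at 0 in marrow, and CD2, MS4A1 and KLRD1 were at 0 in all 8 libraries. The 7 leukaemia cell markers summed to 5213 and 4699 CPM in GIT+ marrow, against 2576 and 2501 CPM in GIT- marrow, most of it LYZ (lysozyme, a myeloid product). Of 5 tested, 3 were called higher and 2 were not called, against 10.3% of all genes called higher. MPO had 86.8 and 42.1 CPM in GIT+ marrow, against 40.9 and 30.6 CPM in GIT- marrow. CD33 had 66.2 and 76.9 CPM, against 56.9 and 62.2 CPM. FLT3 had 441 and 585 CPM in GIT+ marrow, against 491 and 585 CPM in GIT- marrow. PTPRC had 93.2 and 138 CPM, against 130 and 159 CPM. LYZ rose by 1.40 on the log2 scale in marrow (SE 0.12, adjusted p = 4.42e-13) and by 1.77 in the libraries labelled liver (SE 0.13, adjusted p = 4.20e-37), where no histone gene was called. The 5 megakaryocyte markers summed to between 8.59 and 12.2 CPM in marrow, where GP9 rose by 0.58 (log2, SE 0.20, adjusted p = 0.0360) and PF4 and PPBP were at 0. ITGA2B, the other megakaryocyte marker tested, had 1.68 and 2.25 CPM in GIT+ marrow, against 2.701 and 4.88 CPM in GIT- marrow, with a log2 fold change of -0.77 (SE 0.31, adjusted p = 0.0661). The part of these markers in the histone changes was not tested.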

How the data were processed

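The data are 1 table of raw gene counts deposited by the authors, whole numbers with no normalization, for 8 bulk mRNA libraries. The submitters' processing notes name STAR 2.7.3a and the build GRCh38. How reads were counted, on which annotation and strand, and whether mouse reads were removed is not given in the sources used here. Coordinates, exon lengths and stem-loops came from GENCODE 29, which holds 32 of the 33 members (H3C2 is missing), and promoters from RefSeq.

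Groups came from the labels, with 1 library per combination. A gene was tested in a label when 2 or more of its 4 libraries had at least 10 counts, and over all 8 libraries when 2 or more of the 8 did. The counts were scaled by TMM and fitted in edgeR 4.0.16 (R 4.3.3) with robust quasi-likelihood and drug and diet as terms, 2-sided, with Benjamini-Hochberg adjustment over all genes and a threshold of 0.05. Each single-label fit has 1 residual degree of freedom, so p-values lean on the spread shared across genes. In marrow the median prior degrees of freedom were 50.96, and in the libraries labelled liver they were infinite, where standard errors rest on the shared spread alone. The SE is the size of the log2 fold change divided by the square root of F. The drug fits in marrow, over all 8 libraries and for the difference between labels were run on simulated counts, and the other fits were not. The simulation had a fixed spread and no diet effect, with changed genes drawn from all tested genes. It therefore does not measure how well changes of low-count members are found. CPM use each library's total count unless given as TMM-scaled. Intervals of sums and ratios are exact 95% intervals and, since reads carry no molecular identifiers, cover counting error only. A count of 0 allows up to 3 counts, which is 0.220 CPM in the smallest library.

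Named genes are every member called in any comparison, the 5 highest members per length, the polyadenylated list, and up to 3 called genes of each other list with SLBP, NPAT, H3-3B, H2AX and PCNA. Some other genes are named because of their values, and were chosen after these were seen. The members and all lists were chosen with earlier results of these data known. The alternatives were other scalings, no count filter, other model terms, DESeq2 1.42.0, limma-voom with limma 3.58.1, and leaving out each library. Where that leaves 1 library in an arm, its spread is taken to be that of the rest. Non-overlap counts, shared stretches, stem-loop cores, sums by class and the alternatives for the other gene lists were chosen later, with the values in view.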

Additional observations from a re-analysis of the deposited data

Results flagged for a closer look

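The drug effect on 4 clustered histone genes differed between marrow and the libraries labelled liver, by the test of that difference in edgeR over all 8 libraries. The difference, marrow minus labelled liver on the log2 scale, was 1.26 for H2BC12 (SE 0.22, adjusted p = 0.00183), 1.49 for H2AC6 (SE 0.32, adjusted p = 0.0117), 1.49 for H2BC5 (SE 0.37, adjusted p = 0.0288) and 1.15 for H1-2 (SE 0.30, adjusted p = 0.0352). Each was higher in both GIT+ marrow libraries than in both GIT- ones. In the libraries labelled liver H2BC12 and H1-2 had both GIT+ libraries above both GIT- ones on the TMM scale, and H2AC6 and H2BC5 did not. Tissue label and batch code coincide in all 8 libraries, so their parts in these differences cannot be told apart.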

How the results depend on the processing

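The calls rest on 8 libraries without replicates, and low counts limit most members. Fits with 1 library left out held the remaining libraries of both labels, so for a comparison within a label the model changed too. No paired analysis was possible because each combination has 1 library and the labels give no replicate numbers. H2BC12 kept its call for the drug in marrow, and for the difference between labels, in every alternative run, and no called member changed direction in any of them. In marrow the drug called 4 members in all settings but library totals, which called 6 (4 higher and 2 lower), and 2 to 4 with 1 library left out. For the drug, DESeq2 gave an adjusted p to only 6 of 25 members in marrow and 12 of 30 in the libraries labelled liver. The drug over all 8 libraries called 1 member as reported, 4 without a count filter, 2 by DESeq2 (9 members with an adjusted p), 2 by limma-voom, and 0 to 2 with 1 library left out. The tissue label called 0 as reported, 2 without a count filter (H2BC12 and H2AC6, both higher in marrow) and 1 by DESeq2 (3 members with an adjusted p). The drug by label called 4 as reported, 1 by DESeq2 (1 member with an adjusted p), and 1 to 3 with 1 library left out. The diet by label called 0 as reported and 1 without a count filter (H2AC6), and 0 to 1 with 1 library left out. The diet in the libraries labelled liver called 1 as reported, 0 with separate terms over all 8 libraries, 0 without the drug term, and 0 to 1 with 1 library left out. Leaving out 1 library gave 0 calls throughout for the drug in the libraries labelled liver, the diet in marrow, the diet over all 8 and the tissue label. The GIT+ over GIT- ratio of summed members in marrow was 1.64 with the ketogenic diet, 1.85 with TMM scaling and 0.817 without the polyadenylated list. With the standard diet it was 1.53, 1.67 and 0.736 in the same order. The list includes the 4 genes called higher, so leaving it out lowers the ratio by design. The 27 other members also summed lower in GIT+ than in GIT- marrow within each diet. With TMM factors these sums were 23.3 against 25.2 CPM with the ketogenic diet and 18.5 against 23.1 CPM with the standard diet. The cause of the reversal was not tested. DESeq2 gave no member an adjusted p for the diet within either label, and this alternative has no value there.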

Other observations

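Histone genes outside the clusters code for variant histones, most of them from polyadenylated messages, and H2AX also gives a stem-loop message. With gilteritinib in marrow 1 rose and 3 fell, against 10.3% of all genes called higher and 9.88% lower. Of 11 tested from a list of 19, H1-10, a linker histone variant, rose by 0.47 in edgeR's test (log2, SE 0.11, adjusted p = 0.00112). CENPA, the centromeric H3 variant, fell by 1.13 (SE 0.15, adjusted p = 2.95e-08), H2AZ1, an H2A variant of promoters, by 0.63 (SE 0.11, adjusted p = 2.03e-05), and H2AX, the H2A variant phosphorylated at DNA breaks, by 0.47 (SE 0.11, adjusted p = 0.00164). The other 7 were not called, and H3-3B, a source of the H3.3 variant, had a log2 fold change of -0.0041. Without the GIT+ KD- library, and likewise without the GIT- KD- library, 2 genes of the list rose and 1 fell. Without the GIT+ KD+ or the GIT- KD+ library 0 rose and 3 fell. In the libraries labelled liver 0 of 11 were called with the drug by edgeR, DESeq2 or limma-voom, where edgeR called 2.26% of all genes. With the diet in those libraries H2AJ, an H2A variant gene, rose by 0.58 (SE 0.17, adjusted p = 0.0486).

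Histone chaperones, which carry histones to DNA, fell or were not called. With gilteritinib in marrow 11 of 22 fell and 0 rose, with a median log2 fold change of -0.30, against -0.0071 over all genes, of which 9.88% were called lower and 10.3% higher. HJURP, the chaperone of CENPA, fell by 1.20 (SE 0.16, adjusted p = 3.69e-08), ASF1B by 0.89 (SE 0.11, adjusted p = 2.39e-08) and CHAF1B, a subunit of the chromatin assembly factor, by 0.74 (SE 0.15, adjusted p = 0.000206). The count of calls was 5 by DESeq2 and 4 to 6 with 1 marrow library left out. In the libraries labelled liver HJURP fell by 0.59 (SE 0.15, adjusted p = 0.00591) and the other 21 were not called, against 2.26% of all genes called in either direction. The count of called chaperones there was 0 without the GIT+ KD- or the GIT- KD- library, by DESeq2, with all 8 libraries fitted together and with the diet term dropped.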
